A study of Mus musculus with 89 samples.

Results

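The comparison described here set mouse embryonic stem cells (ESCs) that had lost both Esrrb and Nr5a2 (−E−N) against ESCs that had lost Esrrb alone (−E), in medium with fetal calf serum and LIF (FCS/LIF). It rests on 4 RNA-seq libraries, 2 of each state, chosen by their labels from 20 RNA-seq libraries and 89 samples in the whole series. All 4 came from EKOiE cells, which lack both endogenous copies of Esrrb and carry an Esrrb transgene that is switched on by doxycycline (Dox), and all were taken 2 days after Dox was withdrawn. The −E libraries came from EKOiE cells with intact Nr5a2, and the −E−N libraries from EKOiE NrKO cells, in which exon 4 of Nr5a2 is disrupted on both alleles. The other states in FCS/LIF, with 2 libraries each, were EKOiE cells kept in Dox at 1 µg/ml (+E+N) and EKOiE NrKO cells kept in Dox (−N). The same 4 states were grown in 2i/LIF, a medium with inhibitors of Mek and Gsk3, with 3 libraries each. The labels do not give the clone of the NrKO cells, and the supplement names clone 4 for RNA-seq, so an effect of losing Nr5a2 and a property of the NrKO line cannot be told apart. The labels do not say whether replicates of a state were separate cultures, while the study calls its FCS/LIF replicates independent experiments without saying what they shared, and p-values measure only the spread between these samples.

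Esrrb and Nr5a2 are orphan nuclear receptors that bind DNA as monomers through closely related motifs, a short nuclear receptor site extended by TCA at its 5′ end. In mouse ESCs both are part of the transcription factor network of naive pluripotency, the state of the preimplantation epiblast, together with Oct4 (Pou5f1), Sox2, Nanog and the Klf factors. Outside ESCs Nr5a2 is known for its control of bile acid, cholesterol and steroid genes in liver, ovary and pancreas. The question put by the design is what the second receptor adds to gene expression once the first is gone.

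The 4 libraries held between 36514172 and 41626847 estimated counts each, and the share of mitochondrial transcripts lay between 2.09% and 2.23%. The 2 −E libraries differed by 4.28 times the sampling variance of the counts and the 2 −E−N libraries by 10.2 times, so neither pair was 1 library deposited under separate labels. The defining ESC markers were present in the −E−N libraries, with Pou5f1 at 916 and 797 CPM (counts per 1000000), Sox2 at 175 and 149 CPM, Nanog at 97.9 and 120.0 CPM and Zfp42 at 46.3 and 47.9 CPM. CPM values here are scaled between libraries by TMM. In bulk RNA, fewer cells of a type and less RNA per cell cannot be told apart.

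The disrupted exon is shown because it defines the −E−N cells. Exon 4 of the transcript Nr5a2-205, the first exon of the DNA binding domain, spans 119 bases of the minus strand at chr1:136944959-136945077 in mm10 (GRCm38). It is an internal exon of 9. Capitals mark the stretch between the coordinates described for the shorter deletion of clone 4, with the base at each end included. The size described for that deletion is 1 base less, so a base at an end of the capitals may not have been removed. The longer deletion described for clone 4, on the other allele, spans the whole exon and is not marked.

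Nr5a2 exon 4: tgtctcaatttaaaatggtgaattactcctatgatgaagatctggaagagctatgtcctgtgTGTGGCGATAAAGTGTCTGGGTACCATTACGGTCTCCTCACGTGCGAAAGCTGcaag

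The Nr5a2 transcript (ENSMUSG00000026398) stood at 20.0 and 19.5 CPM in −E and at 10.4 and 9.34 CPM in −E−N. This 2.00-fold lower level was past the test (log2 fold change −1.003 ± 0.09 SE, edgeR adjusted p = 0.000451). With Dox it stood at 41.0 and 37.1 CPM in +E+N and at 27.5 and 26.0 CPM in −N. A count over the whole gene includes exons outside the deleted stretch and is no check of the loss of exon 4.

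Esrrb (ENSMUSG00000021255) was at 279 and 362 CPM in +E+N and at 75.3 and 66.1 CPM in −E, or 22.1% of the +E+N mean. In −E−N it was lower again, at 31.7 and 29.4 CPM, a log2 fold change of −1.21 ± 0.14 against −E (edgeR adjusted p = 0.000942). The compared groups therefore differed in residual Esrrb RNA as well as in Nr5a2, and the part of this difference in the results below was not tested. A gene count cannot say whether the remaining reads came from the disrupted gene or from the transgene.

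Among 15636 genes tested with edgeR's quasi-likelihood test, in a fit of the 8 FCS/LIF libraries, 790 were called at a Benjamini-Hochberg adjusted p under 0.01 and a fold change over 1.5, or 5.05%. Of these, 550 were higher in −E−N (3.52% of genes tested) and 240 were lower (1.53%). The largest changes were falls: 34 called genes fell more than 4-fold and 10 rose more than 4-fold, while 268 rose and 132 fell more than 2-fold. The median log2 fold change of all genes tested was 0.00. Genes called higher had a median level of 11.8 CPM in −E and 23.4 CPM in −E−N, and genes called lower went from 13.2 to 6.31 CPM. By position, called rises held between 2.38% of the genes tested on chromosome 17 and 5.12% of those on the X chromosome, and called falls between 0.608% on chromosome 8 and 2.48% on chromosome 1. The count of calls depended on single libraries. It was 84 without −E replicate 1, 137 without −E−N replicate 2 and 309 without −E replicate 2, and 75 genes (27 higher and 48 lower) were called whichever library of the 4 states was left out.

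**Figure D1:**
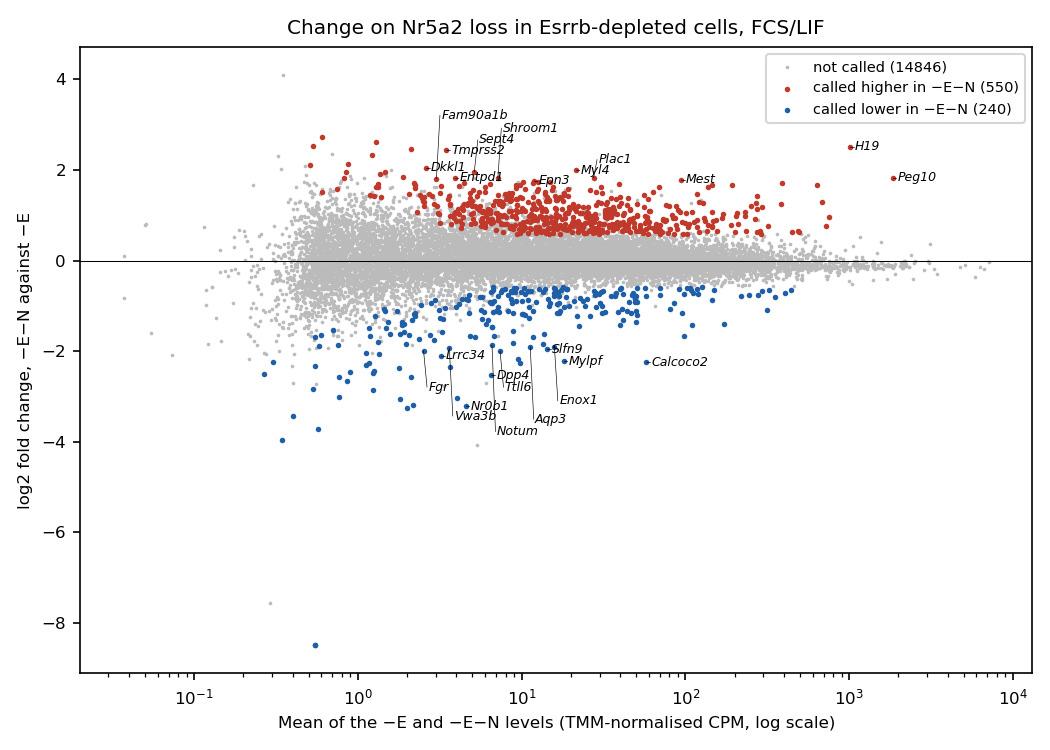
Log2 fold change of −E−N against −E (y axis) by mean level of both states (x axis, TMM-normalised CPM, log scale) for the 15636 genes tested, with the 12 largest falls and rises of named genes with a mean count of 100 or more labelled. The 550 genes called higher stay under a log2 fold change of 3, and the falls reach further down. The lowest points are the near-identical gene models Gm10240 and Gm13370, which had 0 counts in both −E−N libraries, so that their fitted position is no measured size.

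Of 18 naive pluripotency genes tested, 10 were called lower and 0 higher, with a median log2 fold change of −0.91, against 5.05% of all genes called and a median of 0.00. Of the members, 17 had an estimate below 0. The summed level of the list was 1974 and 1906 CPM in −E and 1374 and 1314 CPM in −E−N, against 3434 and 3316 CPM in +E+N.

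Nr0b1 (Dax1), a nuclear receptor without a classical DNA binding domain that interacts with Nr5a receptors, gave the largest fall among the named genes whose mean count reached 100. It was at 54.4 and 49.8 CPM in +E+N, at 9.08 and 7.38 CPM in −E and at 0.878 and 0.881 CPM in −E−N. The step from −E to −E−N was 9.33-fold (log2 fold change −3.22 ± 0.20, edgeR adjusted p = 8.57e-05), and the −E−N mean was 1.69% of the +E+N mean. In −N it was at 41.1 and 32.4 CPM, above both states without Dox.

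Zfp42 (Rex1), a zinc finger protein used as a marker of naive ESCs, was at 161 and 138 CPM in −E and at 46.3 and 47.9 CPM in −E−N. The groups did not overlap, and the level was 3.18-fold lower (log2 fold change −1.67 ± 0.09, edgeR adjusted p = 4.91e-05). Jam2, a junctional adhesion molecule, went from 13.5 and 13.1 CPM to 4.45 and 4.58 CPM, a log2 fold change of −1.56 ± 0.09 (adjusted p = 5.90e-05). Both had already lost most of their +E+N level in −E, with Zfp42 at 29.3% and Jam2 at 9.97% of the +E+N mean.

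The Klf factors did not respond alike. Klf2 went from 68.0 and 61.0 CPM in −E to 28.0 and 29.6 CPM in −E−N (log2 fold change −1.16 ± 0.08, edgeR adjusted p = 0.000132). Klf4 went from 15.7 and 13.8 CPM to 6.97 and 7.58 CPM (−1.02 ± 0.09, adjusted p = 0.000451). Klf5, at 125 and 116 CPM against 119 and 110 CPM, had a log2 fold change of −0.07 ± 0.06 and was not called. All 3 are zinc finger factors that bind similar GC-rich motifs.

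Among the other called members, Fbxo15, an F-box protein expressed in undifferentiated cells, went from 110 and 109 CPM to 51.6 and 52.7 CPM. Tet2, a 5-methylcytosine dioxygenase, went from 33.0 and 29.1 CPM to 17.1 and 16.2 CPM, and Tcl1, a co-activator of Akt, from 8.79 and 8.08 CPM to 4.28 and 4.68 CPM. Prdm14, a repressor of DNA methyltransferase genes, was at 3.33 and 2.25 CPM in −E and at 1.25 and 0.856 CPM in −E−N. Spic, an Ets family factor, had 26 and 28 counts in the −E libraries and 0 and 3 counts in the −E−N libraries. Each of these was called lower, with edgeR adjusted p between 4.88e-05 for Fbxo15 and 0.00764 for Prdm14.

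The members not called had small or variable differences. Tfcp2l1, a Grainyhead family factor of the naive network, was at 28.6 and 28.9 CPM in −E and at 27.1 and 27.2 CPM in −E−N. Its loss had occurred with Dox withdrawal alone, from 126 and 141 CPM in +E+N. Tbx3, a T-box factor, was at 13.7 and 14.96 CPM in −E and at 15.01 and 18.9 CPM in −E−N, the one estimate above 0 (log2 fold change 0.25 ± 0.18). Dppa5a, Pecam1, Nodal and Gbx2 had log2 fold changes between −0.45 and −0.27, and Dppa3 had −0.10. The number of naive genes called lay between 7 and 10 when each library was left out. Klf2, Klf4, Zfp42, Nr0b1, Fbxo15, Tet2 and Jam2 were called in every such fit.

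**Figure D2:**
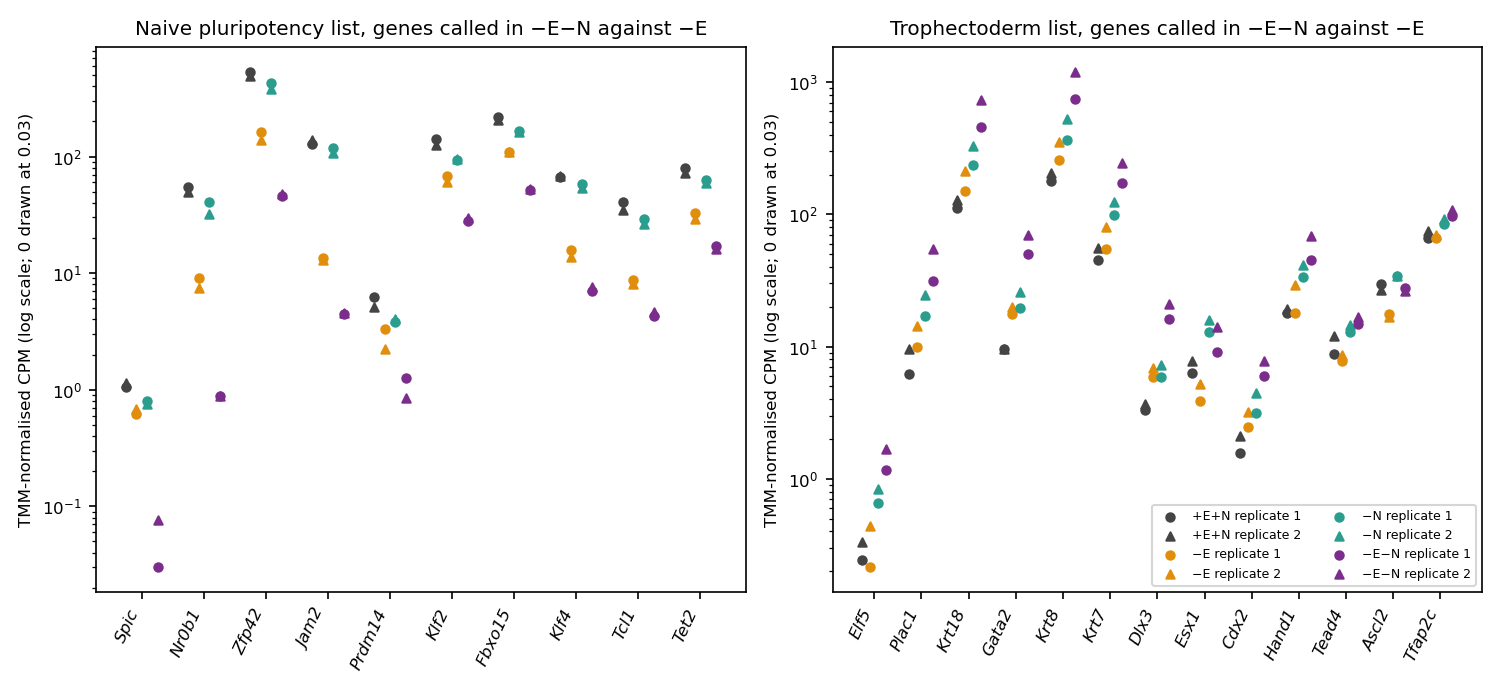
TMM-normalised CPM (log scale) in each of the 8 FCS/LIF libraries for the called members of the naive pluripotency list (left) and the trophectoderm list (right); circles are replicate 1 and triangles replicate 2. In the naive panel the −E−N points lie below all others for each of the 10 genes, and in the trophectoderm panel replicate 2 lies above replicate 1 for most genes in each state.

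Of 13 genes in the core pluripotency list, 4 were called lower and 0 higher, where 1.53% of all genes tested were called lower and 3.52% higher. The list is wider than Oct4 and Sox2, on which the study centres the core network. Its median log2 fold change was −0.47, and all 13 estimates lay below 0. Fgf4, the Fgf ligand that ESCs secrete, went from 62.6 and 57.2 CPM in −E to 30.4 and 25.4 CPM in −E−N (log2 fold change −1.10 ± 0.12, edgeR adjusted p = 0.000809). Foxd3, a forkhead repressor, went from 27.8 and 24.3 CPM to 13.8 and 11.98 CPM. Sox2, the partner of Oct4, went from 298 and 259 CPM to 175 and 149 CPM, a log2 fold change of −0.78 ± 0.10 (adjusted p = 0.00145). Dppa2 was the fourth, at 143 and 143 CPM against 96.3 and 88.2 CPM.

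Pou5f1 was at 1252 and 1202 CPM in −E and at 916 and 797 CPM in −E−N. Its log2 fold change of −0.52 ± 0.09 had an edgeR adjusted p of 0.00489 and missed the limit on fold change. Nanog, at 154 and 148 CPM against 97.9 and 120.0 CPM, had −0.47 ± 0.11 and an adjusted p of 0.0192. Lin28a, an RNA binding protein, was closest to no difference, at 617 and 626 CPM against 603 and 542 CPM. The 4 core calls became 0 without −E replicate 1 and 0 without −E−N replicate 2.

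Markers of the formative and primed epiblast, the states that follow naive pluripotency, did not move one way. Of 20 members, 1 was called higher and 1 lower, where 3.52% of all genes tested were called higher and 1.53% lower, and the median log2 fold change was −0.29. Otx2, a homeobox factor of the formative state, fell from 33.8 and 31.2 CPM in −E to 13.6 and 10.5 CPM in −E−N (log2 fold change −1.44 ± 0.12, edgeR adjusted p = 0.000366). Fgf8 was called higher at a very low level, from 0.238 and 0.484 CPM to 1.22 and 1.33 CPM, and lost its call when any of the 4 compared libraries was left out. Fgf5, the usual primed marker, was at 10.9 and 10.6 CPM in −E and at 10.0 and 10.2 CPM in −E−N. Dnmt3b was at 950 and 947 CPM against 807 and 758 CPM, below the limit on fold change.

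Outside the pluripotency lists, the largest falls of named genes with a mean count of 100 or more were in genes of mixed function. Dpp4, a cell surface dipeptidase, went from 11.2 and 11.1 CPM in −E to 2.08 and 1.79 CPM in −E−N (log2 fold change −2.53 ± 0.14, edgeR adjusted p = 5.90e-05). Calcoco2, an autophagy receptor, went from 97.6 and 93.2 CPM to 23.3 and 17.0 CPM (−2.24 ± 0.27, adjusted p = 0.00124). For both, Dox made little difference to the levels: in +E+N Dpp4 stood at 14.2 and 12.7 CPM and Calcoco2 at 91.7 and 56.8 CPM, and in −N at 2.97 and 2.68 CPM and at 22.5 and 13.3 CPM.

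Mylpf, a myosin light chain of fast muscle, went from 31.9 and 27.9 CPM to 6.36 and 6.42 CPM. Enox1, of the ecto-NADH oxidase family, went from 25.0 and 25.1 CPM to 7.03 and 6.39 CPM, and Notum, an enzyme that inactivates Wnt ligands, from 11.2 and 9.54 CPM to 2.34 and 3.30 CPM. Aqp3, a channel for water and glycerol, fell from 19.6 and 16.1 CPM to 4.47 and 5.06 CPM. The other members of the 12 largest falls were Lrrc34, Ttll6 (a tubulin polyglutamylase), Fgr (a Src family kinase), Slfn9 (of the Schlafen family) and Vwa3b, with log2 fold changes between −2.11 and −1.93. Lrrc34, Ttll6, Slfn9 and Calcoco2 were not called in every fit that left out 1 library. The other 8 of the 12 were.

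Another 19 called falls were passed over because their gene models have no name of their own. Several were near-identical copies, among which RSEM divides shared reads by estimation, so their values are uncertain.

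The motif shared by the receptors was searched in promoters because it is the sequence that both are known to bind. RefSeq promoter windows of GRCm38.p6, from 250 bases before to 50 bases after the start, were matched by symbol for 11200 of 15628 symbols tested. TCAAGGTCA or TCAAGGCCA on either strand was found in 0.804% of these, in 3 of 171 windows of genes called lower (1.75%) and in 6 of 412 windows of genes called higher (1.46%). Of the 12 largest falls and the called naive genes, 21 genes in all, 16 had a window and 1 held a match. It is the promoter of Zfp42 at chr8:43306960-43307259 on the minus strand, shown with the match in capitals. TCAAGGCCA begins 218 bases before the start, on the same strand as the gene. A match is only a run of letters, and a window without it says nothing of binding elsewhere.

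Zfp42 promoter: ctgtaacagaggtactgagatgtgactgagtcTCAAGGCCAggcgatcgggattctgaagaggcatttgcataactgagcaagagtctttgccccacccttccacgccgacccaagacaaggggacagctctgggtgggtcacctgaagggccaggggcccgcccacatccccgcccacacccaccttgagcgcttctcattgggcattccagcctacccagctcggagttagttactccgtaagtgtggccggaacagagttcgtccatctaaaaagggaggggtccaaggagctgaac

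Trophectoderm genes, markers of the lineage that forms the placenta, were higher in −E−N. Of 16 members tested, 13 were called higher and 0 lower, against 3.52% of all genes tested called higher. The median log2 fold change was 1.32. The summed level of the list was 630 and 836 CPM in the −E libraries and 1696 and 2588 CPM in the −E−N libraries. Replicate 2 was above replicate 1 in both states, and the groups did not overlap. In +E+N the sum was 504 and 573 CPM, and in −N 942 and 1253 CPM.

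Krt8 and Krt18, the keratin pair of simple epithelia, made up most of this sum. Krt8 went from 258 and 349 CPM in −E to 744 and 1197 CPM in −E−N (log2 fold change 1.68 ± 0.24, edgeR adjusted p = 0.00242). Krt18 went from 150 and 212 CPM to 458 and 732 CPM, and Krt7 from 55.1 and 80.0 CPM to 172 and 242 CPM. The keratins were within 2-fold between replicates of a state and more than 2-fold apart between the states.

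Transcription factors of the lineage were also higher. Gata2 went from 17.5 and 19.9 CPM to 49.7 and 70.3 CPM (log2 fold change 1.68 ± 0.18, edgeR adjusted p = 0.000706), and Dlx3, a homeobox factor of placenta and skin, from 5.93 and 6.85 CPM to 16.3 and 21.0 CPM. Cdx2, which specifies trophectoderm, was at 2.45 and 3.17 CPM in −E and at 5.96 and 7.78 CPM in −E−N (1.29 ± 0.24, adjusted p = 0.00745). Elf5, a factor of trophoblast stem cells, stood at 0.214 and 0.436 CPM against 1.17 and 1.69 CPM. Esx1, Hand1, Tead4, Ascl2 and Tfap2c were called higher with log2 fold changes between 0.59 and 1.35, and Plac1, a gene of placental growth, with 1.83.

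Not every gene of the lineage differed. Gata3 was at 9.77 and 11.0 CPM in −E and at 13.8 and 17.5 CPM in −E−N, a log2 fold change of 0.59 ± 0.15 with an edgeR adjusted p of 0.0230. Eomes had 0.63 ± 0.16 (adjusted p = 0.0228), and Tfap2a, at 3.64 and 3.87 CPM against 3.65 and 3.85 CPM, had 0.00 ± 0.14. The 13 calls became 0 without −E replicate 1, 1 without −E−N replicate 2 and 5 without −E replicate 2, and were 7 with limma on TPM values.

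Imprinted genes, which are expressed from 1 parental allele, gave 10 calls among 37 tested, all higher, against 3.52% of all genes tested. The median log2 fold change of the 37 was 0.19. The rise was thus held by part of the list, and the summed level went from 4456 and 5063 CPM in −E to 8260 and 10480 CPM in −E−N. H19, a maternally expressed long non-coding RNA at chromosome 7, was the largest rise among the named genes whose mean count reached 100. It was at 246 and 363 CPM in −E and at 1515 and 1947 CPM in −E−N, 5.68-fold higher (2.51 ± 0.22, edgeR adjusted p = 0.000401).

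Its neighbour Igf2, a paternally expressed growth factor, went from 332 and 457 CPM to 780 and 1152 CPM (log2 fold change 1.29 ± 0.23). Peg10, a retrotransposon-derived gene needed in the placenta, went from 705 and 920 CPM to 2264 and 3490 CPM, and its neighbour Sgce from 5.67 and 6.97 CPM to 15.7 and 21.8 CPM. Mest went from 39.9 and 44.97 CPM to 149 and 143 CPM (1.78 ± 0.09, edgeR adjusted p = 4.88e-05), and its replicates lay close together in both states. Nnat, Dio3, Slc22a3, Airn and Slc38a4 were the other calls.

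The imprinted genes of the Dlk1-Dio3 domain other than Dio3 were not called. Meg3 was at 359 and 379 CPM in −E and at 369 and 362 CPM in −E−N, and Rian at 394 and 423 CPM against 426 and 436 CPM. Igf2r was at 144 and 142 CPM against 147 and 142 CPM, and Snrpn at 218 and 214 CPM against 201 and 192 CPM. Peg3 and Gnas had log2 fold changes of 0.43 and 0.47, with edgeR adjusted p of 0.00538 and 0.00183, below the limit on fold change. The 10 calls became 2, H19 and Mest, without −E replicate 1 and 2 without −E−N replicate 2, and 5 without −E replicate 2.

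**Figure D3:**
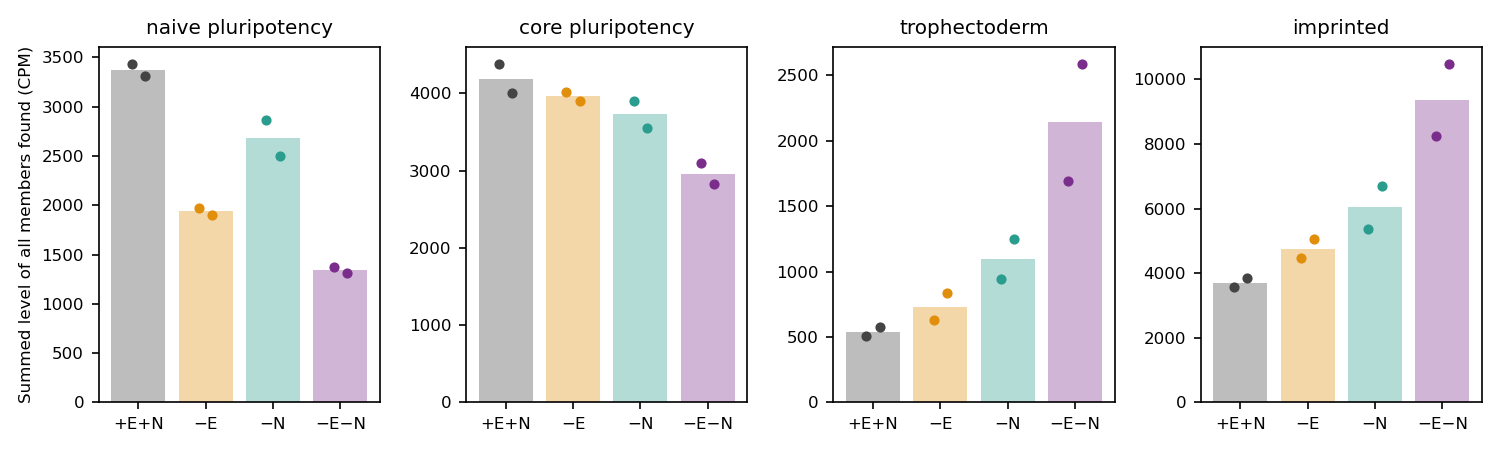
Summed CPM of all members found of 4 gene lists in the 4 FCS/LIF states; points are the 2 libraries of each state and bars their mean. Naive and core sums are lowest in −E−N, and trophectoderm and imprinted sums are highest there, with the widest gap between replicates in the same state.

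The largest rises outside these lists, again of genes with a mean count of 100 or more, were at low or moderate levels. Tmprss2, a membrane serine protease, went from 1.10 and 1.06 CPM in −E to 4.61 and 7.12 CPM in −E−N (log2 fold change 2.44 ± 0.25, edgeR adjusted p = 0.000641). Myl4, an embryonic and atrial myosin light chain, went from 7.34 and 9.87 CPM to 26.5 and 42.0 CPM. Dkkl1, Sept4, Entpd1 (an ectonucleotidase), Shroom1 (an actin regulator), Epn3 (an endocytic adaptor) and Fam90a1b had log2 fold changes between 1.77 and 2.04. Of the 12 largest rises, which include H19, Plac1, Peg10 and Mest, 2 were called without −E replicate 1, 3 without −E−N replicate 2 and 6 without −E replicate 2.

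Calls in signalling pathways are read against the 3.52% of all genes tested that were called higher and the 1.53% called lower. Wnt genes gave 5 calls higher and 1 lower of 32 tested, with a median log2 fold change of 0.33. The ligands Wnt3, Wnt4, Wnt7b and Wnt8a were higher: Wnt7b went from 12.7 and 14.2 CPM in −E to 27.5 and 34.6 CPM in −E−N, and Wnt3 from 4.53 and 6.68 CPM to 11.0 and 15.4 CPM. Sp5, a target gene of the pathway, went from 3.36 and 4.38 CPM to 9.90 and 11.2 CPM (log2 fold change 1.45 ± 0.19, edgeR adjusted p = 0.00172). Notum was the call lower. These calls were 1, Notum alone, without −E replicate 1 and 2 of the 6 without −E−N replicate 2.

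For Nodal and activin signalling 4 of 15 genes were called, all higher. The extracellular inhibitors Lefty1 and Lefty2 went from 106 and 111 CPM to 171 and 195 CPM and from 31.0 and 33.0 CPM to 55.8 and 62.7 CPM. The effector Smad3 was also called, while the ligand Nodal had a log2 fold change of −0.27. Of these calls 1, Lefty2, was made whichever library was left out.

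Fgf and Erk response genes gave 1 call higher (Fgf8) and 3 lower of 24. Besides Fgf4, Spry4, a feedback inhibitor, went from 59.5 and 58.6 CPM to 39.2 and 32.9 CPM, and Fgf15 from 7.29 and 7.24 CPM to 4.42 and 3.95 CPM. In the LIF-Stat3 list 3 of 18 were called. Lifr, the receptor subunit, fell from 51.2 and 46.5 CPM to 32.0 and 32.5 CPM, and Klf4 fell. Junb, an AP-1 subunit, rose from 36.7 and 41.2 CPM to 59.3 and 63.6 CPM. Klf4 was called whichever library was left out, while Lifr and Junb were not. Bmp8b and Msx2 were the calls among 18 Bmp genes (11.1%), both higher. Without −E replicate 1 or −E−N replicate 2 none of the Fgf or Bmp calls was made.

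Among chromatin regulators, Tet1 and Tet2, the dioxygenases that begin DNA demethylation, were called lower of 10 DNA methylation genes. Tet1 went from 460 and 401 CPM in −E to 226 and 175 CPM in −E−N (log2 fold change −1.10 ± 0.11, edgeR adjusted p = 0.000591). Jarid2, a cofactor of Polycomb repressive complex 2, went from 465 and 430 CPM to 263 and 246 CPM and was the one call among 11 members of that list. Mycn, a Myc family factor, went from 353 and 343 CPM to 215 and 198 CPM. It was called lower in each fit that left out 1 library, as were Jarid2 and Tet2, and Tet1 lost its call without −E replicate 1. Mycn was the call lower and Cdkn2a, a cell cycle inhibitor, the call higher among 16 genes of cyclins, Cdk inhibitors and Myc. Of 18 epithelial and mesenchymal genes, Cldn7, Itga5 and Tgfb2 were called higher and 0 lower. Counts in these 4 lists stand beside 3.52% of all genes tested called higher and 1.53% called lower. With each library left out, the log2 fold change of Cdkn2a lay between 0.57 and 0.82 and that of Itga5 between 0.58 and 0.79. For Tgfb2 it lay between 1.20 and 1.66, and for Cldn7 between 1.04 and 1.21. Cldn7 was called in every such fit, while Cdkn2a, Itga5 and Tgfb2 were not.

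Of 24 other nuclear receptors tested, Nr0b1 and Nr1d1 were called lower and Nr2f2 higher, or 12.5% against 5.05% of all genes tested. The median log2 fold change was 0.04, and 12 of the 24 had an unadjusted p under 0.05 by edgeR. Over all genes tested, 5531 of 15636 had an unadjusted p under 0.05 in the same edgeR test. With each library left out, the log2 fold change lay between −0.74 and −0.60 for Nr1d1 and between 1.36 and 2.06 for Nr2f2. Nr0b1 was called in every such fit, while Nr1d1 and Nr2f2 were not. Of the closest relatives of the lost receptors, Esrra was at 18.6 and 19.5 CPM in −E and at 22.4 and 28.0 CPM in −E−N and was not called, and Nr5a1 and Esrrg were under 0.25 CPM in each of the 4 libraries. Of 22 known Nr5a2 target genes of liver, gonad and pancreas, 6 were expressed enough to test and 0 were called by edgeR, with 4 at an unadjusted p under 0.05 and 1 called by each of DESeq2 and limma on log2(TPM + 1). Without −E−N replicate 1 edgeR called 3 of the 6. Scarb1 and Plk3 had an adjusted p under 0.01 with log2 fold changes of 0.55 and 0.58, under the limit.

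Metabolic and stress lists gave shares of called members between 0% and 4.76%, under the 5.05% of all genes tested. Of 69 nuclear genes listed under the mitochondrial respiratory chain 1 was called. This was Chchd10, a protein of the intermembrane space and no subunit of the chain. Chchd10 fell from 163 and 158 CPM to 58.9 and 60.0 CPM (log2 fold change −1.43 ± 0.05, edgeR adjusted p = 1.28e-05). It was called in every fit that left out 1 library. Of 21 glycolytic genes 1 was called, the hexokinase Hk1, which was higher. For 26 cholesterol genes, 17 p53 response genes and 13 mitochondrially encoded genes edgeR, DESeq2 and limma on TPM values each made 0 calls. Of these lists 8, 4 and 0 members had an unadjusted p under 0.05 by edgeR, where 5531 of all 15636 genes tested had one. Without −E−N replicate 1 edgeR called 2 of the cholesterol genes.

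Markers of other cell types moved in part, where 3.52% of all genes tested were called higher and 1.53% lower. For primitive streak and mesoderm 3 of 13 genes tested were called higher (Wnt3, Wnt8a and Hand1) and 0 lower. Wnt3 and Wnt8a are also counted in the Wnt list, and Hand1 in the trophectoderm list. T (brachyury) was at 1.14 and 1.26 CPM in −E and at 2.88 and 2.44 CPM in −E−N without a call. The summed level of the streak and mesoderm list stayed low, at 44.0 and 59.9 CPM against 90.7 and 121 CPM. Neural genes gave 3 calls higher (Sox1, Nes and Tubb3) and 2 lower (Pax6 and Neurog3) of 13. Primitive endoderm genes gave Col4a2 higher and Lama1 and Cubn lower of 15, and the defining factors Gata4, Gata6 and Sox17 were under 5 CPM in all 4 libraries. Of 11 fibroblast markers tested, Col3a1 and Acta2 were called higher. Acta2 was called whichever library was left out, while Col3a1 was not. The summed level of the fibroblast list was 70.7 and 82.8 CPM in −E and 120 and 135 CPM in −E−N. Of 14 germline and maternal genes, Khdc3, Ooep and Prdm1 were called lower. Without −E replicate 1 none of the streak, neural, primitive endoderm and germline calls was made, and without −E−N replicate 2 the one call left was in primitive endoderm. The part of such cells in the results was not tested.

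**Figure D4:**
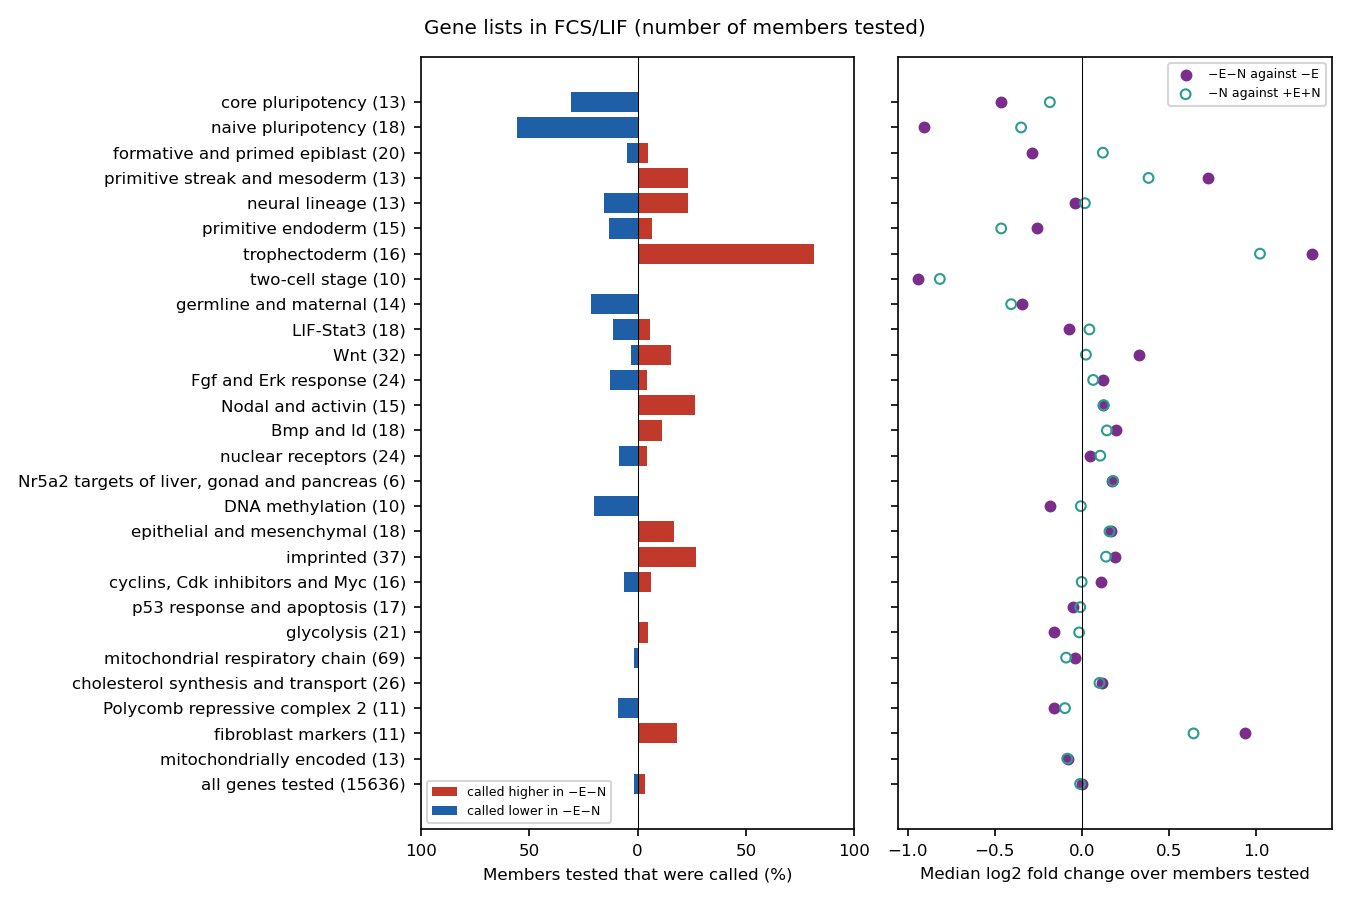
For the gene lists and for all genes tested, the share of members tested that were called higher (right of 0) or lower (left of 0) in −E−N against −E (left panel, %), and the median log2 fold change in −E−N against −E (filled) and in −N against +E+N (open; right panel). Trophectoderm (13 of 16 higher) and naive pluripotency (10 of 18 lower) have the highest shares called.

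To ask whether the response differed when Esrrb was present, the change from +E+N to −N was set beside it. These comparisons share no library, though they share the NrKO line. With Esrrb present 27 of 15636 genes were called (0.173%), and 24 of them were called in the same direction without Esrrb. The 790 genes called without Esrrb had the same sign of change in 98.4% of cases with Esrrb present, against 74.4% over all genes tested. Their size was smaller: the genes called higher had a median log2 fold change of 0.99 without Esrrb and 0.57 with it, and those called lower −1.08 and −0.46. The genes were chosen by the first of these comparisons, so the medians are a description and no test of a difference.

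The difference itself, tested as an interaction, was called for 5 genes (0.0320% of those tested), each with a larger fall without Esrrb. They were Nr0b1, Enox1, Zfp42, Jam2 and Chchd10. Enox1 had a log2 fold change of −0.26 ± 0.07 from +E+N to −N and of −1.90 ± 0.09 from −E to −E−N, an interaction of −1.64 ± 0.11 (edgeR adjusted p = 0.00274). For Nr0b1 the interaction was −2.72 ± 0.24 (adjusted p = 0.00572), and for Chchd10 −0.89 ± 0.07 (adjusted p = 0.00519). Each of the 5 was also called lower in −E−N against −E. The count of 5 became 0 in each fit without one of the +E+N, −E or −E−N libraries, and 9 without −N replicate 2.

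Trophectoderm and imprinted genes had no called interaction. From +E+N to −N Krt8 had a log2 fold change of 1.20, with an interaction of 0.47 (adjusted p = 0.714 by edgeR). For H19 the values were 2.20 and 0.31, and for Mest 1.67 and 0.11. Of these H19 and Mest were called in −N against +E+N. A p that misses the threshold does not show that the responses were equal.

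**Figure D5:**
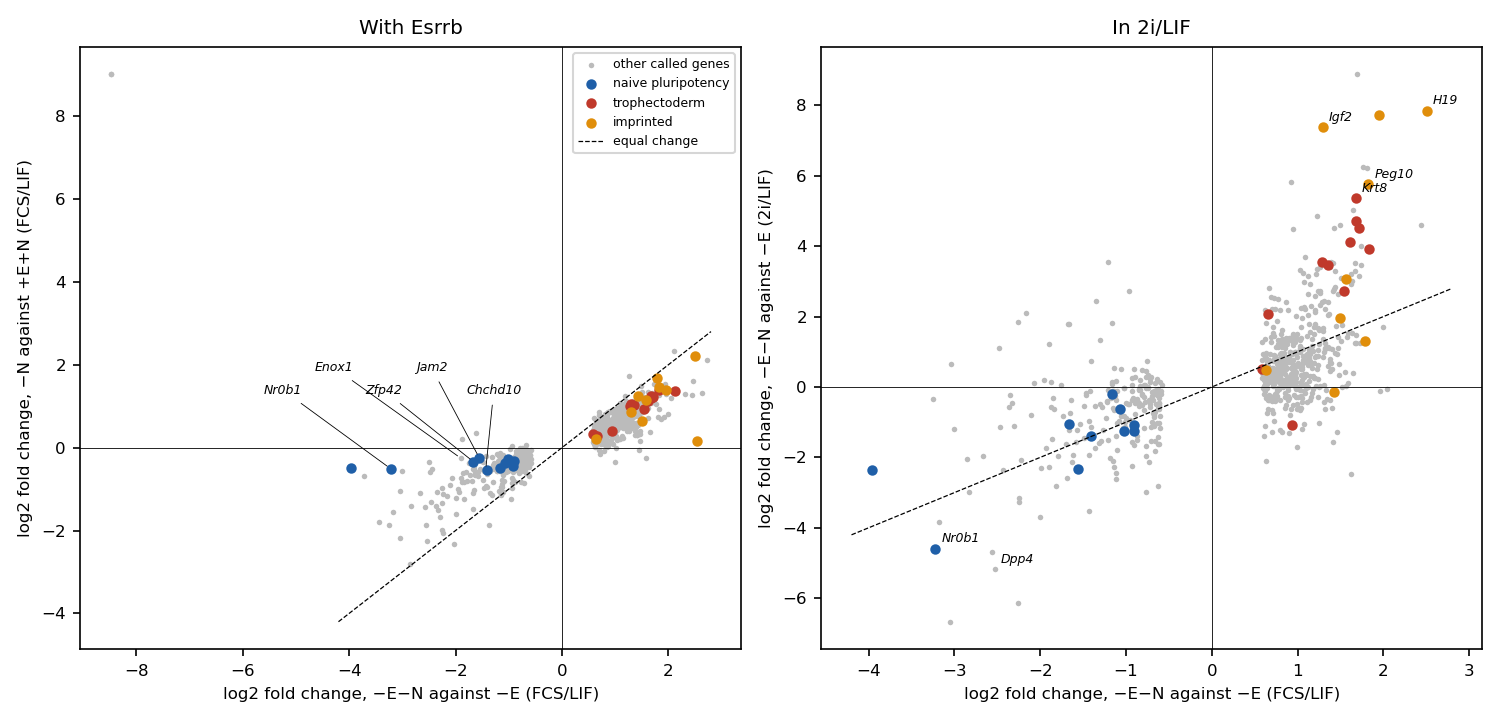
Log2 fold change of the 790 called genes in −E−N against −E in FCS/LIF (x axis) against −N against +E+N in FCS/LIF (left) and −E−N against −E in 2i/LIF (right); the dashed line marks equal change. On the left the 5 genes with an interaction are named. Over the 18 naive genes tested, the median was −0.35 in −N against +E+N and −0.91 in −E−N against −E. On the right Krt8, Igf2, H19 and Peg10 lie above the line, while other trophectoderm and imprinted genes, such as Tead4, Nnat and Mest, lie below it. The points at the upper left of the left panel are the gene models Gm10240 and Gm13370, listed at 0 counts in +E+N and −E−N.

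The same pair of states was also compared in 2i/LIF, from 6 other libraries. There 1883 of 14355 genes were called (13.1%). Of the genes called in FCS/LIF 713 were tested in 2i/LIF, 80.1% of them had the same sign (60.8% over all genes tested in both) and 262 were called in the same direction, while 22 were called in the opposite one. Medium and culture batch cannot be told apart, and the count of replicates differs.

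A test of the difference between media was past the threshold for 1114 of 16147 genes (6.90%), and for 183 of the 790 called in FCS/LIF. In 126 of these the change was stronger towards its FCS/LIF direction in FCS/LIF, and in the others it was stronger in 2i/LIF. Trophectoderm and imprinted genes were on both sides. Krt8 changed by 1.68 on the log2 scale in FCS/LIF and by 5.37 in 2i/LIF (difference −3.68 ± 0.42, edgeR adjusted p = 2.69e-05), Igf2 by 1.29 and 7.39, and H19 by 2.51 and 7.85. In the opposite direction, Tead4 rose by 0.94 in FCS/LIF and fell by 1.09 in 2i/LIF (difference 2.04), and Nnat rose by 1.42 in FCS/LIF and had −0.13 in 2i/LIF (difference 1.57). Naive genes had a median of −0.91 in FCS/LIF and −1.10 in 2i/LIF, and of the 10 called in FCS/LIF the difference was past the threshold for Klf2, which fell by 1.16 in FCS/LIF and had a log2 fold change of −0.19 in 2i/LIF.

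Nr0b1 fell in both media, by 3.22 and 4.59, and Dpp4 by 2.53 and 5.17. Enox1 fell by 1.90 in FCS/LIF and had a log2 fold change of 1.21 in 2i/LIF, and the difference was past the threshold (adjusted p = 0.00129 by edgeR). Slfn9 and Notum also fell in FCS/LIF, with 0.21 and 0.13 in 2i/LIF.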

How the data were processed

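RNA-seq libraries of mouse ESCs were analysed as gene tables. Reads, from stranded libraries sequenced at both ends, were mapped by the authors to mm10 using STAR, and the estimated counts per gene that they obtained with RSEM were deposited with no scaling between samples. TPM values, which the authors also took from RSEM, were deposited in a second table and served as an alternative. Each table held 54238 rows, of which 92 were ERCC spike-in sequences with 0% of the counts and were left out. Of 54146 gene rows, 54079 were matched to GENCODE vM21 for coordinates. Groups came from the labels.

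Counts were rounded and fitted in edgeR 4.0.16 (R 4.3.3) with TMM and the quasi-likelihood test, over the 8 FCS/LIF libraries. A gene entered when both libraries of any one state had 20 counts or more. Genes were called at a Benjamini-Hochberg adjusted p under 0.01 and a fold change over 1.5. The interaction and the difference between media (20 libraries) had no limit on fold. A standard error is that of the fitted log2 fold change. With 2 libraries against 2, the smallest p an exact permutation could give is 0.333, and none is reported. Genes near 20 counts have the largest counting error.

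Named genes were Esrrb, Nr5a2, members of 28 gene lists, and the 12 largest falls and 12 largest rises among called genes whose mean count reached 100 and whose CPM did not overlap between the groups, passing over gene models named Gm and a number or ending in Rik. Gm10240 and Gm13370 fall outside this rule and were chosen with their values in view. One of the lists and some members of others are not reported here. The comparison, the lists and the tests were chosen with earlier results of these data known. The alternatives were DESeq2 1.42.0, its size factors, other filters, the replicate number as a block, fewer or more libraries in the fit, limma 3.58.1 on TPM with a pseudocount of 1 or of 0.1 before taking log2, other thresholds, and leaving out each library. The steps were tested on simulated data. ChIP-seq was not used here.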

Additional observations from a re-analysis of the deposited data

Results flagged for a closer look

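A test of the interaction in FCS/LIF was past the threshold for 5 genes, meaning that the change from −E to −E−N differed from the change from +E+N to −N. The interaction on the log2 scale was −2.72 for Nr0b1, −1.64 for Enox1, −1.33 for Zfp42, −1.31 for Jam2 and −0.89 for Chchd10.

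A test of the difference between FCS/LIF and 2i/LIF was past the threshold for 1114 genes. Among the genes named in the report, the difference (FCS/LIF minus 2i/LIF, log2) was negative for Igf2 (−6.09), Slc22a3 (−5.78), H19 (−5.33), Epn3 (−4.49), Peg10 (−3.93), Krt8 (−3.68), Gata2 (−3.02), Krt18 (−2.79) and Krt7 (−2.50), which all rose more in 2i/LIF. It was also negative for Enox1 (−3.10), Slfn9 (−2.15) and Notum (−1.996), which fell in FCS/LIF and had positive estimates in 2i/LIF. For Klf2 (−0.96), which fell more in FCS/LIF, it was negative too. It was positive for Dpp4 (2.66), Ttll6 (1.72) and Dppa2 (1.01), which fell more in 2i/LIF, and for Tead4 (2.04) and Nnat (1.57), which rose in FCS/LIF and had negative estimates in 2i/LIF. Medium and culture batch cannot be told apart.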

How the results depend on the processing

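The direction of the 100 named called genes was the same in every alternative run for them: 98 were called by DESeq2, 100 with the replicate block and 68 by limma on log2(TPM + 1), while 25 were called without −E replicate 1, 32 without −E−N replicate 2, 58 without −E replicate 2 and 76 without −E−N replicate 1. The 790 genes called in −E−N against −E (550 higher, 240 lower) became 437 (280, 157) with all 20 libraries in one fit, 1571 (1062, 509) with no filter on low counts, 482 (344, 138) by limma on log2(TPM + 1) and 467 (308, 159) on log2(TPM + 0.1), 1258 with no limit on fold change (447 lower), and 1511 (1037, 474) at an adjusted p under 0.05. Leaving out each library gave between 84 and 897 calls, 28 to 642 higher and 56 to 255 lower. The interaction was called for 63 genes by DESeq2, 242 with no filter, 2 by limma on log2(TPM + 1), 0 with all 20 libraries and between 0 and 9 with a library left out. The difference between media was called for 1770 genes by DESeq2, and for 548 to 1167 with a library left out. Called trophectoderm genes were 7 by limma on log2(TPM + 1) and between 0 and 13 with a library left out, core pluripotency genes between 0 and 6, imprinted genes between 2 and 11, naive genes between 7 and 10, and calls in 2i/LIF between 1362 and 1913. The share of called genes with the same sign was 94.1% in −N against +E+N and 73.3% in 2i/LIF with no filter. Fits that left out a library of a state compared assume that the lone library varies like the other states. The cause of these differences was not tested.

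With the replicate number as a block, 1265 genes were called (912 higher, the rest lower), the interaction was called for 40 and the difference between media for 2410. The shares with the same sign were 96.8% in −N against +E+N and 76.9% in 2i/LIF. The labels do not say what same-numbered libraries share, and their deviations from the state means correlated at 0.177 between −E and −E−N and at 0.0361 to 0.36 over the 6 pairs of states. With 2 libraries a state, the number was not taken as a pairing.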

Other observations

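Genes of the two-cell stage had opposite estimates in the 2 media. In FCS/LIF all 10 members tested had an estimate below 0 in −E−N against −E, with a median log2 fold change of −0.94 and 0 calls by edgeR (8 at an unadjusted p under 0.05, 1 called by DESeq2, up to 1 by edgeR with a library left out, 0 by limma on log2(TPM + 1) and 7 by edgeR with no filter on low counts), and the summed level was 92.4 and 158 CPM in −E against 57.2 and 73.5 CPM in −E−N. Over all genes tested in FCS/LIF, 5531 of 15636 had an unadjusted p under 0.05 by edgeR. In 2i/LIF 9 of 9 members tested were called higher, with a median of 3.13. The difference between media was past the threshold for 9. The Zscan4 genes that make up most of the list are near-identical copies and share reads, so they are not independent of each other. Zscan4c was at 17.6 and 32.3 CPM in −E and at 12.2 and 14.3 CPM in −E−N, with an edgeR adjusted p of 0.0455.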
